A study of Rattus norvegicus with 9 samples.

Results

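Endothelial nuclei were those that the authors labelled Endo in a single-nucleus ATAC sequencing (snATAC-Seq) experiment on rat kidney, and they numbered 3219 of 53298 nuclei (6.04%). The label was the seventh most frequent of 12. Every nucleus with this label was used, and each was joined to its position on the authors' UMAP, a map with 2 axes on which nuclei with similar open chromatin lie close to each other. The markers Pecam1, Flt1, Emcn and Kdr, which would check the label, were not analysed here, because the tables used here give names and positions of nuclei and no value for a gene or a peak.

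Whole kidneys came from male Sprague-Dawley rats, recorded as adult and with an age of 6 weeks. Control rats were sham operated, and received the oil without hormone and tap water. All other rats had lost 1 kidney, drank salt water and were injected every week with deoxycorticosterone acetate (DOCA, 50 mg/kg), a mineralocorticoid, which together produce hypertension and kidney damage. The DOCA group received a vehicle of ethanol, solutol and water by daily gavage. The Finerenone group received finerenone at 10 mg/kg per day and the Spironolactone group spironolactone at 50 mg/kg per day, both blockers of the mineralocorticoid receptor, and the Amiloride group received amiloride at 20 mg/kg per day, which closes the epithelial sodium channel. Surgery, salt and hormone all set Control apart from every other group, and their parts cannot be told apart. Some rats of the study were killed earlier than the others, and which time applies to each library is not given in the sources used here.

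Endothelial cells line the blood vessels of the kidney: the fenestrated capillaries of the glomerulus, where plasma is filtered, the capillaries around the tubules, which take up what the tubules reabsorb, and the vessels of the medulla that run beside the loop of Henle. Loss of capillaries around the tubules is a known feature of chronic kidney disease and hypertensive injury, in which fibroblasts lay down matrix and macrophages enter the tissue. Fibroblasts, myofibroblasts (MyoFib) and macrophages (Mac) are the other labels of the interstitium and blood in this data set.

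The 9 libraries held between 1817 and 15235 nuclei, and between 48 and 1027 of these were endothelial. Control, DOCA, Finerenone and Spironolactone had 2 libraries each, 1 from a kit that reads only chromatin (scATAC) and 1 from a kit that reads RNA as well (Multiome), and Amiloride had 1 Multiome library. The Amiloride library supplied 31.9% of the endothelial nuclei and 15.4% of all nuclei. The codes of the Control Multiome and the Amiloride library share a stem, although by their recorded treatments they cannot come from the same rat. The codes of both DOCA libraries also share a stem, as do those of both Spironolactone libraries, and whether each of these pairs comes from the same rat is not stated. P values therefore measure the spread between libraries, which may be technical. Multiome libraries shared between 53 and 244 barcodes per pair and scATAC libraries between 5 and 13, against 0 or 1 for libraries of different kits. Among all 53298 nuclei there were 1390 pairs with a shared barcode. In 182 of these pairs at least 1 nucleus was endothelial, and in 7 both were. The barcode of 184 of the 3219 endothelial nuclei occurred in another library as well.

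Counted against all nuclei, the endothelial share differed more between the libraries of Control, and between those of Finerenone, than between the Control and DOCA means. In Control it was 3.26% in the scATAC library (80 of 2455 nuclei, exact Clopper-Pearson 95% interval 2.59 to 4.04, which covers counting error only) and 7.93% in the Multiome library (404 of 5095, 7.20 to 8.71). In DOCA it was 2.79% (69 of 2471, 2.18 to 3.52) and 4.74% (433 of 9143, 4.31 to 5.19). Both DOCA values lay below the Control value of the same kit, but the DOCA Multiome library lay above the Control scATAC library. In Finerenone the share was 2.64% (48 of 1817, 1.95 to 3.49) and 6.85% (420 of 6132, 6.23 to 7.51). In Spironolactone it was 4.52% (123 of 2721, 3.77 to 5.37) and 4.04% (615 of 15235, 3.73 to 4.36). The Amiloride library stood above the other 8 with 12.5% (1027 of 8229, 11.8 to 13.2). The Multiome libraries exceeded the scATAC libraries of the same group in Control, DOCA and Finerenone but not in Spironolactone, and the kit term of the model was 0.85 on the log2 odds scale (SE 0.40, limma, adjusted p = 0.0821).

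A share of all nuclei moves with the number of proximal tubule nuclei (convoluted, PCT, straight, PST, and injured, iPT), the most frequent cells of the kidney. With these left out, 23996 nuclei remained. The endothelial share of them was 17.3% and 13.5% in the Control libraries (scATAC first, then Multiome) and 7.86% and 8.42% in the DOCA libraries. It was 8.30% and 14.6% in Finerenone and 18.8% and 9.90% in Spironolactone. The Amiloride library held 24.5%. Control and DOCA did not overlap on this scale, whereas the Finerenone pair spanned the gap between them, with the Multiome library the higher. Of the Spironolactone pair the Multiome library lay inside that gap and the scATAC library above both Control libraries. The kit term was -0.13 (SE 0.32, limma, adjusted p = 0.895).

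Of the 6855 nuclei labelled Endo, Fibroblast, MyoFib or Mac (called the interstitial set or labels here), endothelial nuclei were 47.9% (40.1 to 55.8) and 56.5% (52.8 to 60.2) in the Control libraries. They were 22.9% (18.3 to 28.1) and 27.8% (25.6 to 30.1) in the DOCA libraries. In Finerenone they were 24.2% (18.4 to 30.8) and 52.3% (48.8 to 55.8), so that the scATAC library resembled DOCA and the Multiome library Control. In Spironolactone they were 42.9% (37.1 to 48.8) and 40.5% (38.0 to 43.0), between the Control and the DOCA values. In the Amiloride library they were 78.5% (76.1 to 80.7), the highest value. The kit term was 0.62 (SE 0.35, limma, adjusted p = 0.194).

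**Figure D1:**
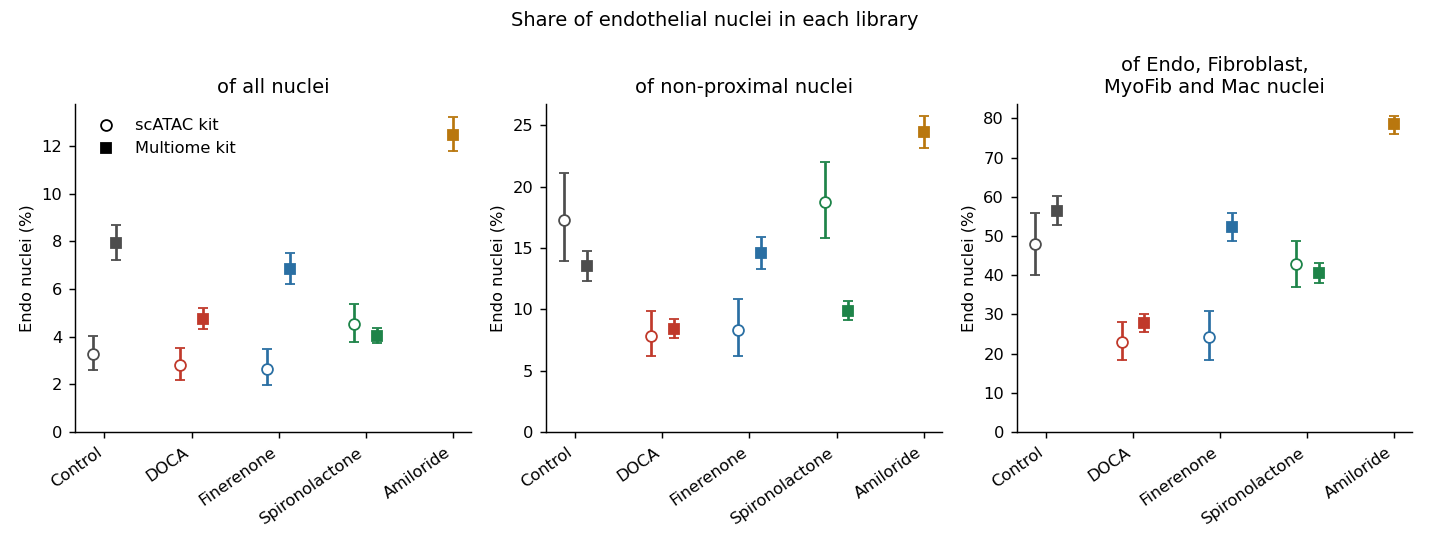
Percentage of endothelial nuclei (y axis) by group (x axis) among all nuclei, among nuclei outside the proximal tubule and among Endo, Fibroblast, MyoFib and Mac nuclei. Each point is 1 library, bars are exact 95% counting intervals, open circles are scATAC and filled squares Multiome libraries. The Amiloride library is highest in each panel (12.5%, 24.5% and 78.5%), and both DOCA libraries lie below both Control libraries in the middle and right panels.

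Groups were compared by the log2 odds of the share (endothelial nuclei over the rest of the set) in a limma fit across the labels of the set, with group and kit as terms. The residual variance of the endothelial counts between libraries was 21.0, 19.9 and 12.4 times that of counting error for the 3 sets, so the libraries, not the number of nuclei, limit these comparisons. All comparisons with DOCA share the same DOCA libraries. A share cannot tell fewer endothelial nuclei from more nuclei of other labels, and the tables hold no absolute number of cells.

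DOCA was compared with Control to see which cells the disease model gains or loses. Endothelial nuclei fell as a share of the interstitial set, from 52.2% ± 6.08 (SD, n = 2) to 25.4% ± 3.47 (SD, n = 2), with odds 3.22-fold lower (log2 change -1.69, SE 0.50, limma adjusted p = 0.0315, lower in both kits by -1.62 and -1.75). Outside the proximal tubule the Control share was 15.4% ± 2.69 (SD, n = 2) and the DOCA share 8.14% ± 0.397 (SD, n = 2), with a log2 change of -1.03 (SE 0.45, limma adjusted p = 0.0545) that did not pass, with changes of -1.29 and -0.76 in the scATAC and Multiome kits. Of all nuclei it was 5.59% ± 3.30 (SD, n = 2) and 3.76% ± 1.37 (SD, n = 2), a change of -0.51 (95% interval -1.65 to 0.63, limma adjusted p = 0.446) that did not pass either. Many labels moved in this comparison, and limma called 3 of the 12 labels of all nuclei (25.0%), 4 of the 9 outside the proximal tubule (44.4%) and 3 of the 4 interstitial labels (75.0%), so a call of the endothelium was no rarity among them.

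The size of the change in the interstitial set depended on the macrophages. Macrophages rose in that set from 7.86% ± 4.98 (SD, n = 2) to 39.2% ± 7.53 (SD, n = 2; log2 change 3.05, SE 0.83, limma adjusted p = 0.0315). MyoFib fell (-1.47, SE 0.19, limma adjusted p = 0.0041), although on 5 and 26 nuclei in DOCA, and the change of Fibroblast was -0.14 (SE 0.31, limma adjusted p = 0.683). When macrophages were left out, a step added after seeing the data, endothelial nuclei were 54.1% and 59.1% of the Endo, Fibroblast and MyoFib nuclei in Control and 34.7% and 50.2% in DOCA. The groups still did not overlap, but the change was smaller at -0.83 (limma adjusted p = 0.0591) and did not pass. Outside the proximal tubule the same step gave -0.86 (limma adjusted p = 0.0426), which passed. The interstitial change had the same direction and a like size without the Control scATAC library (-1.60, limma adjusted p = 0.138), the Control Multiome library (-1.77, 0.131), the DOCA scATAC library (-1.86, 0.0992) or the DOCA Multiome library (-1.52, 0.158), but did not pass in these fits, where 1 group has a single library that is assumed to vary like the others. Without either Finerenone library the change outside the proximal tubule passed (-1.03, limma adjusted p = 0.0434).

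**Figure D2:**
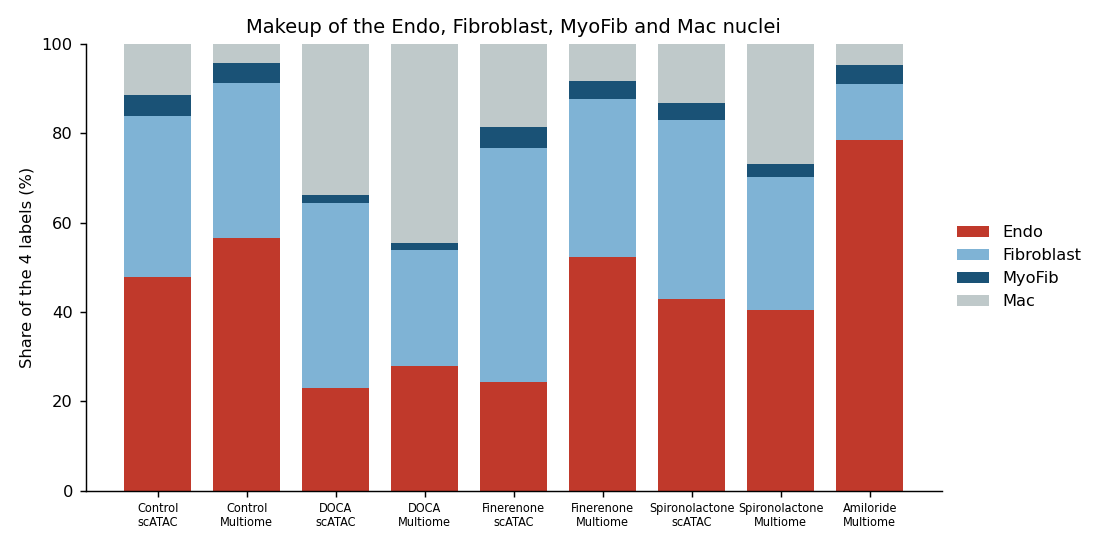
Percentage of the Endo, Fibroblast, MyoFib and Mac nuclei (y axis) that carried each label, as stacked bars, in each of the 9 libraries (x axis). Macrophages take 33.9% and 44.5% in the DOCA libraries against 11.4% and 4.34% in Control, and fibroblasts take 12.5% in Amiloride against 26.0% or more elsewhere.

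A ratio of endothelial nuclei to a single other label does not move with the remaining labels. There were 4.21 and 13.03 endothelial nuclei per macrophage in the Control libraries and 0.676 and 0.625 in DOCA, which were the lowest of the 9. Per fibroblast there were 1.33 and 1.62 in Control and 0.552 and 1.07 in DOCA. Relative to fibroblasts, the cells that make the matrix, the pairs thus did not overlap but lay closer together than relative to macrophages. Per MyoFib nucleus the ratios were 10.0 and 13.03 in Control and 13.8 and 16.7 in DOCA, so this comparison had the opposite direction. Per loop of Henle nucleus (LOH), whose label lay among the 3 nearest to the endothelium on the UMAP, they were 0.792 and 0.482 in Control and 0.322 and 0.371 in DOCA. The pairs did not overlap for 4 further labels, named after their values were seen. Per iPT nucleus the ratios were 1.40 and 0.973 in Control and 0.140 and 0.249 in DOCA, per distal convoluted tubule nucleus (DCT) 1.57 and 0.867 against 0.406 and 0.417, and per principal cell nucleus (PC) 1.74 and 1.22 against 0.454 and 0.502. Per podocyte (Podo) they were higher in DOCA, at 7.67 and 7.47 against 2.11 and 2.68 in Control. For PCT, PST and intercalated cells (IC) the pairs overlapped. The lower ratio in DOCA was thus not limited to macrophages, and it did not extend to MyoFib nuclei and podocytes.

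**Figure D3:**
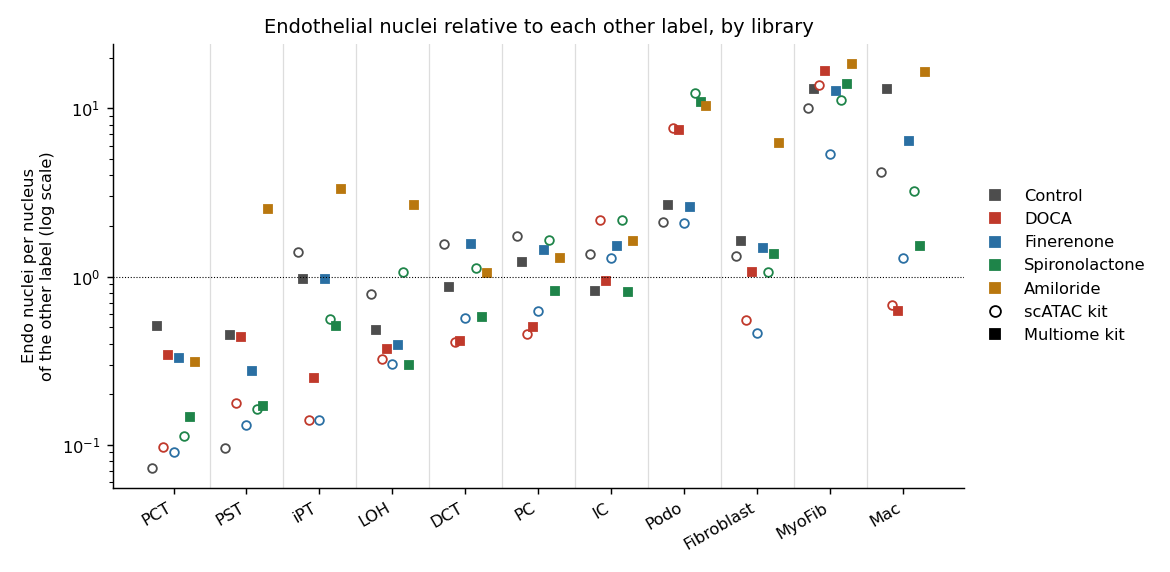
Endothelial nuclei per nucleus of each other label (y axis, log scale) for the 11 other labels (x axis), with 1 point per library, open circles for scATAC and filled squares for Multiome. The Amiloride library has the highest ratio for PST, iPT, LOH, Fibroblast, MyoFib and Mac, and lies within the range of the other 8 libraries for PCT, DCT, PC, IC and Podo.

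Finerenone was compared with DOCA to see what blocking the receptor without a steroid changes. Its endothelial share was 11.4% ± 4.44 (SD, n = 2) outside the proximal tubule and 38.3% ± 19.8 (SD, n = 2) of the interstitial labels, above the DOCA means, but the pair of libraries was far apart. The log2 changes were 0.24 of all nuclei (95% interval -0.90 to 1.39, limma adjusted p = 0.729), 0.49 outside the proximal tubule (-0.43 to 1.41, 0.323) and 0.81 in the interstitial set (-0.53 to 2.14, 0.174), and none passed. Within kits the interstitial change was 0.11 (scATAC) and 1.51 (Multiome). The Finerenone libraries held 48 endothelial nuclei to 37 macrophages and 420 to 66, ratios that were both above both DOCA values, and per fibroblast 0.462 and 1.48, on either side of them. The result turned on the Finerenone libraries. Without the scATAC library, which leaves 1 Finerenone library that is assumed to vary like the others, the interstitial change was 1.57 (limma adjusted p = 0.0252), and without the Multiome library it was 0.04 there, -0.19 outside the proximal tubule and -0.14 of all nuclei. Limma called 2 of 12 (16.7%), 3 of 9 (33.3%) and 1 of 4 labels (25.0%) in this comparison.

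Spironolactone, a steroid blocker of the same receptor, gave 14.3% ± 6.28 (SD, n = 2) outside the proximal tubule and 41.7% ± 1.68 (SD, n = 2) of the interstitial labels. Both libraries lay above both DOCA libraries on these scales, and the interstitial values of the pair were closer to each other than those of any other pair. The changes were 0.24 of all nuclei (95% interval -0.91 to 1.38, limma adjusted p = 0.676), 0.85 outside the proximal tubule (-0.08 to 1.77, 0.160) and 1.07 in the interstitial set (-0.26 to 2.41, 0.182). None passed, and the within-kit changes of the interstitial share were 1.33 and 0.82. Per macrophage the Spironolactone libraries held 3.24 and 1.51 endothelial nuclei and per fibroblast 1.07 and 1.36. The interstitial change passed without either Finerenone library (1.07, limma adjusted p = 0.0390) and when only the Spironolactone and DOCA libraries were fitted (1.07, 0.0187). Without the Spironolactone scATAC library it was 0.56, the change outside the proximal tubule was 0.21, and that of all nuclei turned to -0.44. Without the Spironolactone Multiome library the changes were 1.58, 1.48 and 0.92. With libraries weighted by counting precision the change was 0.43 outside the proximal tubule and -0.0851 of all nuclei. Limma called 0 of 12 labels (0.0%, with 3 at an unadjusted p under 0.05), 0 of 9 (0.0%, with 2) and 1 of 4 (25.0%).

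The blockers of the receptor were also compared with each other, as compounds that differ in having a steroid structure or not. Finerenone minus Spironolactone was 0.01 of all nuclei (95% interval -1.14 to 1.15, limma adjusted p = 0.992), -0.35 outside the proximal tubule (-1.28 to 0.57, 0.639) and -0.27 in the interstitial set (-1.60 to 1.07, 0.620). In each set the change had opposite signs in the scATAC and Multiome kits, with -1.22 and 0.69 in the interstitial set, -1.34 and 0.64 outside the proximal tubule and -0.79 and 0.81 of all nuclei. The intervals include a more than 2-fold difference of the odds in either direction for the interstitial set, so a difference of that size was not detectable and equal shares were not shown. The sign changed without the Finerenone scATAC library (0.33 outside the proximal tubule, 0.50 interstitial) or the Spironolactone scATAC library (0.28 and 0.24) and with counting weights (0.39 in both sets), and of all nuclei without the Finerenone Multiome (-0.38) or the Spironolactone Multiome library (-0.67). Limma called 1 of 12 (8.33%), 1 of 9 (11.1%) and 0 of 4 labels (0.0%, also 0 at an unadjusted p under 0.05). The doses of the drugs differed.

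Amiloride was compared with DOCA to see what lowering sodium entry without blocking the receptor changes. With a single Amiloride library there was no replicate, so the values below set that library against DOCA. Their p values rest on the spread taken over labels, which outside the proximal tubule was below the endothelium's own (0.450 against 0.592). They also assume that the library varies like the libraries of the other groups. The odds of the endothelial share in it were 8.63-fold higher than in DOCA within the interstitial set (log2 change 3.11, SE 0.64, limma adjusted p = 0.0123 under that assumption) and 3.81-fold higher outside the proximal tubule (1.93, SE 0.57, limma adjusted p = 0.0089). Of all nuclei the change was 1.49 (SE 0.72, limma adjusted p = 0.110), which did not pass. Limma called 4 of 12 (33.3%), 4 of 9 (44.4%) and 4 of 4 labels (100%) in this comparison, so the other 3 interstitial labels were called as well. Outside the proximal tubule the call was lost when the DOCA scATAC library was left out (1.82, limma adjusted p = 0.0795) or when the DOCA Multiome library was (2.12, 0.0765), and also without the kit term (1.87, 0.0585). The interstitial call was lost without the DOCA Multiome library (2.90). Over the other settings on a log2 scale, the centred log-ratio among them, the interstitial change ran from 1.74 to 3.42. The change of all nuclei was 1.57 without either Control library and 1.69 as a centred log-ratio.

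The Amiloride library held 6.26 endothelial nuclei per fibroblast, against 0.462 to 1.62 in the other 8 libraries, and 2.52 per PST nucleus, against 0.095 to 0.451. It held 16.6 per macrophage, where the Control Multiome library held 13.03, and 18.3 per MyoFib nucleus, where the other 8 held 5.33 to 16.7. Per LOH nucleus it held 2.65 against 0.2996 to 1.06. Among Endo, Fibroblast and MyoFib nuclei alone the endothelial share was 82.4% (80.1 to 84.4) in Amiloride and at most 59.1% in another library. Relative to PCT, DCT, PC, IC and Podo nuclei the Amiloride library lay inside the range of the others, for example with 0.310 endothelial nuclei per PCT nucleus against 0.073 to 0.509.

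The Amiloride library was set against Control as well, a comparison added after seeing the data, with the same assumption about the spread of its 1 library. The changes were 0.98 of all nuclei (95% interval -0.48 to 2.44, limma adjusted p = 0.313), 0.90 outside the proximal tubule (-0.28 to 2.08, 0.193) and 1.42 in the interstitial set (-0.28 to 3.12, 0.165), and none passed. Limma called 1 of 12 (8.33%), 1 of 9 (11.1%) and 0 of 4 labels (0.0%, with 1 at an unadjusted p under 0.05). Under that assumption the limma adjusted p of the interstitial change was 0.0340 without either Finerenone library (1.61) and 0.0247 without macrophages (1.44). The Amiloride and Control Multiome libraries, whose codes share a stem, had the highest endothelial shares of all nuclei. By their recorded treatments they come from different rats. What the stem stands for is not stated, and its part in the result was not tested.

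**Figure D4:**
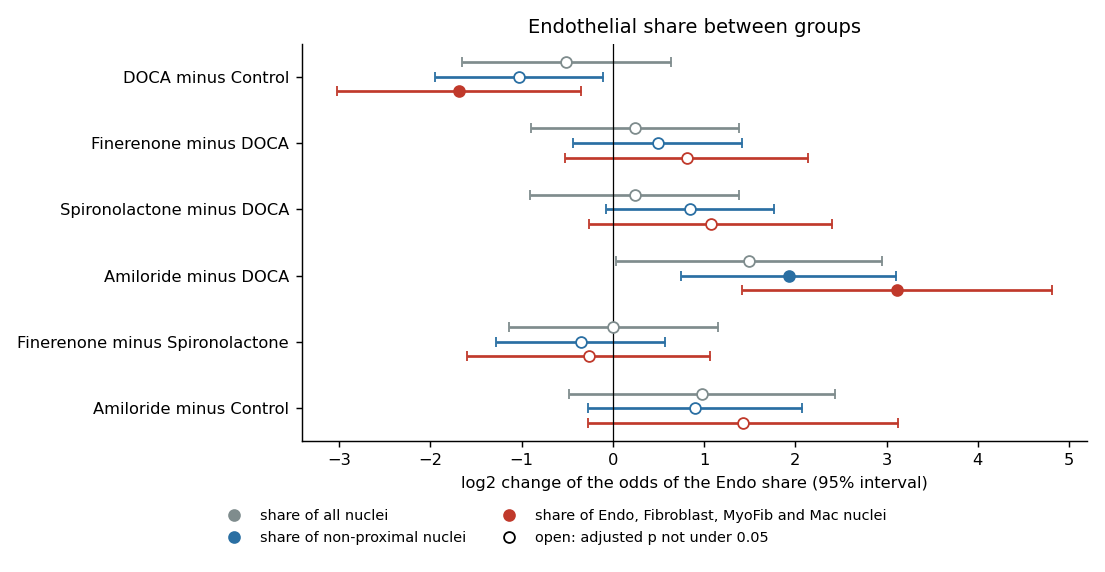
Change of the endothelial share between groups (x axis, log2 odds, with 95% limma intervals) for 6 comparisons (y axis) and 3 sets of nuclei, with filled points where the adjusted p was under 0.05. Only DOCA minus Control in the interstitial set (-1.69) and Amiloride minus DOCA outside the proximal tubule (1.93) and in the interstitial set (3.11) are filled, and the latter comparison rests on 1 Amiloride library, assumed to vary like the others.

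A test that shares no spread between labels was run as well. Group labels were permuted within kits in all 2880 ways, which form 120 distinct regroupings, and the statistic was the F of group once kit was fitted, and the smallest p this allows is 0.00833. The exact permutation p was 0.45 for the share of all nuclei, 0.317 outside the proximal tubule and 0.133 in the interstitial set (0.4 after adjustment over the 3). None passed. Without the Finerenone Multiome library the interstitial p was 0.0208.

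On the UMAP most endothelial nuclei lay together. The authors' labels came from clusters of the same batch-corrected data that the UMAP draws, so neighbours of the same label follow from how both were made and are given as a description. Of the 15 nearest neighbours of an endothelial nucleus, 92.4% on average were endothelial too, and for 3060 nuclei (95.1%) at least 8 of 15 were. These are called core nuclei here. The same percentage was 81.6% to 98.8% in the other 11 labels. Their percentage ran from 91.3% (Control scATAC) to 96.5% (DOCA Multiome) over the libraries, with intervals that overlap. The labels whose median points lay nearest to that of the endothelium were MyoFib (4.19 UMAP units), LOH (4.52) and Fibroblast (4.53), and Mac lay farther off (8.24). The other 159 endothelial nuclei lay among other labels, most often PCT (55), PST (44), DCT (21) and LOH (19), and 4 each lay among fibroblasts and macrophages. In turn, 134 nuclei of other labels lay among endothelial nuclei, with 32 PST, 23 PCT, 16 LOH, 15 iPT and 14 Mac nuclei as the most numerous. Restricting the endothelium to its core nuclei, added after seeing the data, turned the sign of Finerenone minus Spironolactone of all nuclei (-0.02) and changed no other direction or call among the shares.

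The core nuclei made a crescent with a large lobe and a small one. Their density along the UMAP_1 axis peaked at -4.66 and at -7.42, with a minimum at -6.67 between the peaks, where the density was 0.101 against 0.563 and 0.243 at the peaks. The small lobe beyond the minimum held 558 core nuclei (18.2%). It took 20.5% (11.98 to 31.6) and 28.0% (23.6 to 32.8) of the core nuclei in the Control scATAC and Multiome libraries. In DOCA it took 10.8% (interval 4.44 to 20.9) and 20.3% (16.6 to 24.5), and in Finerenone 9.09% (2.53 to 21.7) and 19.7% (15.9 to 24.0). The drug groups did not exceed the Control library of their kit. In Spironolactone it took 15.8% (9.63 to 23.8) and 16.0% (13.1 to 19.2), and in Amiloride 15.3% (13.1 to 17.7). Within each kit the Control library had the highest share in the small lobe, and among the scATAC libraries, with 44 to 114 core nuclei, the intervals overlap. Which vessels the lobes stand for cannot be read from these tables, and since the lobes were drawn from the same positions no test was made.

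Another feature was a sparse arm on the other side, beyond -4 on the UMAP_1 axis, a round value chosen on the plot. It held 9.81% (7.13 to 13.1) of the core nuclei of the DOCA Multiome and 8.69% (6.54 to 11.3) of those of the Spironolactone Multiome library. It held 5.88% (3.77 to 8.70) in Finerenone Multiome, 4.97% (3.02 to 7.66) in Control Multiome and 1.12% (0.558 to 1.99) in Amiloride. Among the scATAC libraries it held at most 3 nuclei each, and none of the 73 in Control. The Amiloride library, with the most core nuclei (986), thus had a lower percentage there than any other Multiome library.

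Some places on the map were held mostly by the Amiloride library. The region was divided into squares with a side of 0.5, and in 7 of the 44 squares with at least 10 core nuclei a single library held 80% or more, which was the Amiloride library each time. These squares held 216 core nuclei, of which 198 were from the Amiloride library (20.1% of its 986), and none of the other libraries reached that majority in any square. The same count by label gave 16.0% of the Amiloride nuclei for intercalated cells, 7.10% for DCT and 0.683% for PCT, and 0 for the other 8 labels, so that the endothelium had the highest percentage by this count. Amiloride nuclei had neighbours from their own library in 49.7% of cases, against 31.9% by its share of the endothelial nuclei, a ratio of 1.56. That ratio was 0.815 to 1.55 in the other libraries, and for the Amiloride library it was higher than in the endothelium in 9 of the 11 other labels. Both counts depend on the share of a label that the library supplies. By that share 31.9% of neighbours were expected in the endothelium and at most 24.8% (MyoFib) in another label. A higher share makes a majority of 80% easier to reach and lowers the highest ratio possible. The labels can therefore not be ranked by either count, and neither was tested.

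**Figure D5:**
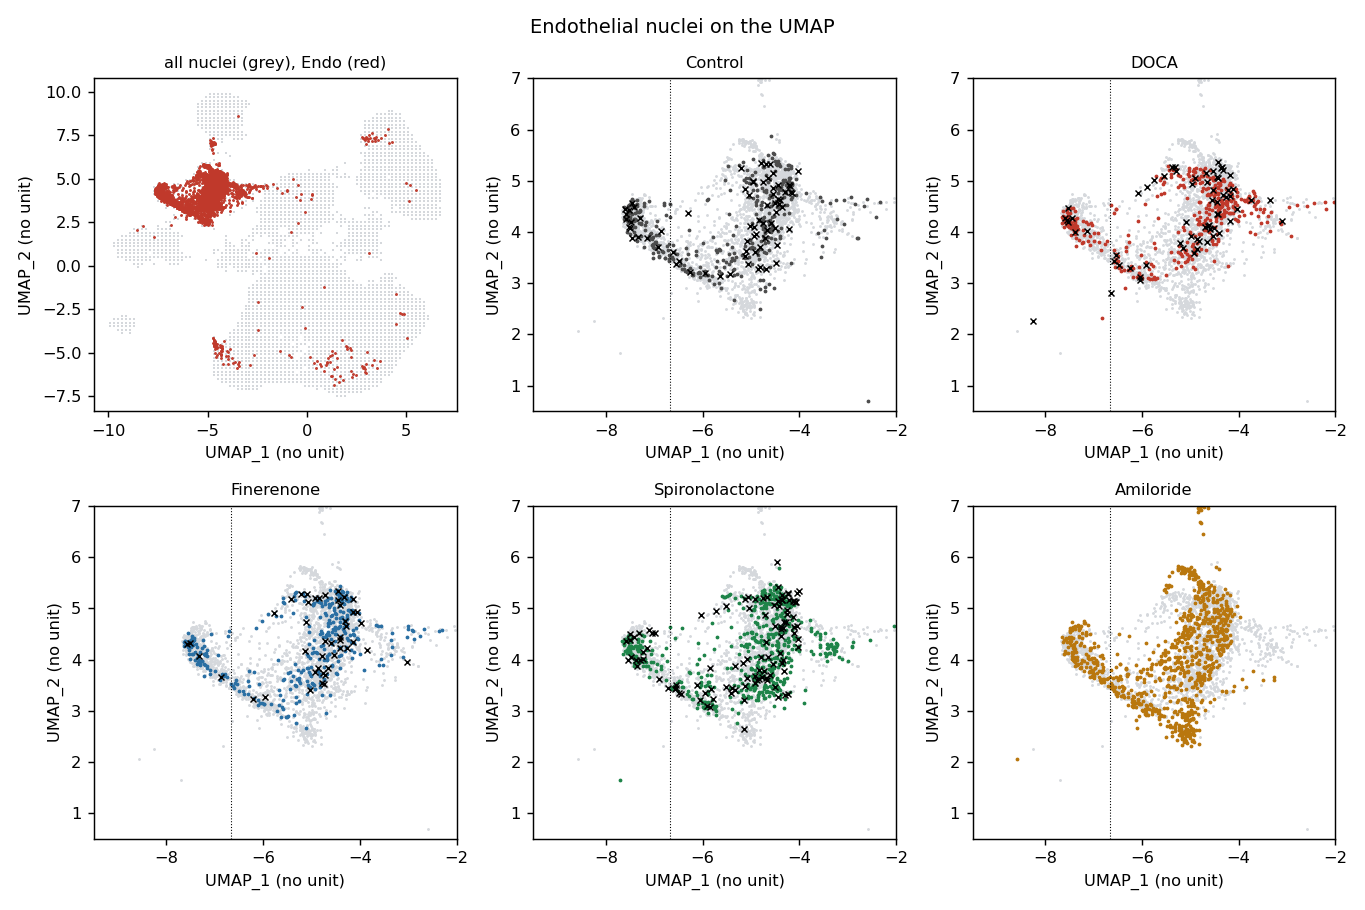
Position of the endothelial nuclei on the 2 UMAP axes (no unit), among all nuclei in the first panel and enlarged by group in the others, where grey points are the endothelial nuclei of all libraries, colored points the Multiome and black crosses the scATAC nuclei of the group. Endothelial nuclei outside the enlarged window are not drawn there, and the dotted line marks the minimum of density at -6.67, beyond which 28.0% of the Control Multiome and 15.3% of the Amiloride core nuclei lie.

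The position of the endothelial nuclei as a whole was compared between groups over libraries. The median UMAP_1 was -4.81 and -4.98 in Control, -4.68 and -4.84 in DOCA, -4.72 and -4.72 in Finerenone, -4.68 and -4.73 in Spironolactone and -5.06 in Amiloride. Amiloride thus had the lowest median, followed by Control Multiome, and both medians lay in the large lobe. Of the Multiome libraries, Amiloride had the lowest percentage of core nuclei in the small lobe (15.3%) and in the arm beyond -4 (1.12%). Within a kit, the Finerenone and Spironolactone medians differed from DOCA by less than the scATAC and Multiome libraries of Control differed from each other. They also differed by less than the scATAC and Multiome libraries of DOCA. The exact permutation p within kits was 0.05 (0.15 after adjustment over 3 measures), which did not pass. For the median UMAP_2 it was 0.158 (adjusted 0.237) with medians of 4.00 to 4.33, and for the median distance to the common median point it was 0.933 with medians of 0.955 to 1.33. The coordinates were made after batch correction and hold no physical unit.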

How the data were processed

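Nuclei of 9 libraries were used, as described above. The authors aligned reads with Cell Ranger ATAC (1.1.0 per the labels) to the rat build rn6, and filtered, merged, batch corrected with Harmony, clustered and named nuclei in Signac (1.3.0), so losses of nuclei at their filters are part of every share. The deposited metadata hold a library code, treatment and label for each nucleus, which are names. The deposited UMAP coordinates are a score without unit. Peak counts and quality measures were not analysed here. In the study's methods the count of data sets merged is not 9. The treatment column gave each library its group, and shared barcodes gave its kit.

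Nuclei were neither filtered further nor screened for doublets. Counts per library and label gave shares with exact intervals (Python 3.11.15, scipy 1.17.1). The log2 of (count + 0.5)/(rest + 0.5) was fitted with limma 3.58.1 (R 4.3.3, default eBayes) on group and kit over all 9 libraries, separately over 12, 9 and 4 labels, with Benjamini-Hochberg adjustment over the labels within each contrast and calls at 0.05. For all nuclei and for nuclei outside the proximal tubule eBayes gave infinite prior degrees of freedom, and for the 4 labels 1.47. Neighbours were found with scikit-learn 1.9.0. Steps were tested on simulated data. Endo was named in each comparison with Fibroblast, MyoFib, Mac and any label among the 3 nearest on the UMAP (LOH), and other labels were named after their values were seen. The members, labels and tests were chosen with earlier results of these data known. Alternatives were other transformations, weights, variance models, thinned libraries, fits without kit and fits without each library.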

Additional observations from a re-analysis of the deposited data

How the results depend on the processing

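Of 394 values recomputed under another setting for 25 results, 355 kept their direction and their side of the threshold, 9 lost the call, 14 gained it and 16 changed direction. With the centred log-ratio, Amiloride minus DOCA of all nuclei passed (1.69, limma adjusted p = 0.0207) and Finerenone minus Spironolactone became -0.30. That contrast also became -0.0134 with thinned libraries, -0.0195 with core nuclei alone and -0.00135 without macrophages, and 0.39 with weights by counting precision both outside the proximal tubule and in the interstitial set. The same weights gave -0.0851 for Spironolactone minus DOCA of all nuclei. Without the kit term (no replicate block), Amiloride minus DOCA outside the proximal tubule was 1.87 (adjusted p = 0.0585), and this changed no other call. With the 2 groups alone, Spironolactone minus DOCA in the interstitial set was 1.07 (0.0187), while Amiloride, with no residual degrees of freedom there, gave no value. Without macrophages, DOCA minus Control was -0.86 (0.0426) outside the proximal tubule and -0.83 (0.0591) in the interstitial set. The causes were not tested.

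Leaving out a library of a group other than Amiloride leaves that group with 1, which is then assumed to vary like the other groups. Leaving out the Amiloride library removes its group, so the comparisons with Amiloride lack that setting. Leaving out 1 library at a time gave, for all nuclei, -0.85 to -0.18 (DOCA minus Control), -0.14 to 0.63 (Finerenone minus DOCA), -0.44 to 0.92 (Spironolactone minus DOCA), 1.32 to 1.58 (Amiloride minus DOCA) and -0.67 to 0.69 (Finerenone minus Spironolactone). Outside the proximal tubule the same comparisons ran from -1.23 to -0.83, -0.19 to 1.18, 0.21 to 1.48, 1.77 to 2.12 and -1.04 to 0.33. In the interstitial set they ran from -1.86 to -1.52, 0.0449 to 1.57, 0.56 to 1.58, 2.90 to 3.30 and -1.03 to 0.50. The exact permutation p of the interstitial share ran from 0.0208 to 0.385, and that of the median UMAP_1 from 0.0625 to 0.25. No paired analysis was possible beyond the kit term because no 2 groups share more than 1 number in their titles, and the number they share (DOCA, Finerenone and Spironolactone) belongs to Multiome libraries, which the kit term already sets together. The spread between libraries, larger than counting error in each set, limits these comparisons.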
